A study of Mus musculus with 2 samples.

Results

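The chromosomal passenger complex and the mitotic kinases were followed through 10 genes in mouse lung: Aurkb, Incenp, Birc5 and Cdca8 of the complex itself, the spindle pole kinases Aurka, Plk1 and Nek2, and the checkpoint kinases Bub1, Bub1b and Ttk. They were chosen by gene symbol, and each of the 10 was carried by 1 probe, out of 13840 genes named on the array. RNA came from lungs of Rosa26-Foxm1 mice, which carry a Foxm1 transgene under the name of the broadly active Rosa26 locus, and of wild type FVB/N mice, which were male by their labels. The labels used here give no sex or strain for the Rosa26-Foxm1 mice. Mice of both genotypes had received the carcinogen 3-methylcholanthrene once at 15 µg/g body weight. They then received the lung tumour promoter butylated hydroxytoluene in 6 weekly injections, the first at 150 µg/g and the later ones at 200 µg/g. Lungs were taken 12 weeks after the carcinogen. No untreated lung is among the samples, and ages are not in the labels. Each genotype is 1 array of left lung lobes pooled from 3 mice, so the data hold no spread between animals and no p-value could be given.

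The chromosomal passenger complex gathers at centromeres and later at the spindle midzone, where it corrects faulty attachments between chromosomes and microtubules and helps cytokinesis. Its enzyme is the kinase Aurora B, and the other subunits place and activate it. Aurora A and Plk1 act mainly at the spindle poles and drive entry into mitosis, and Bub1, BubR1 and Mps1 hold anaphase back until all chromosomes are attached. Foxm1, a forkhead transcription factor of proliferating cells, is known to activate several of these genes, Aurkb, Birc5, Plk1 and Nek2 among them. In adult lung these genes are transcribed mainly in the few cells that divide.

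Birc5, Aurka and Bub1 were higher in Rosa26-Foxm1 than in wild type lung, by 2.22-fold, 2.21-fold and 1.86-fold. Incenp, Plk1 and Bub1b stood above 0 by smaller amounts, at log2 differences of 0.48, 0.52 and 0.42, while Aurkb was at 0.11. Nek2 at -0.23 and Cdca8 at -0.41 stood below 0, and Ttk was below the floor on both arrays. A gene counts as measured if its probe exceeded the floor, the median normalised intensity of 1.00, on at least 1 array, and 9 of the 10 did. At a size of 1.5-fold (a log2 difference of 0.58), 3 of the 9 were higher, against 7.08% of all 9518 measured genes, none was lower, against 8.45%, and 6 lay between. Birc5 and Aurka also passed 2-fold, as did 1.98% of measured genes in that direction, and 7 of the 9 stood above 0, as did 43.9%. All 9 were among the 4759 dimmer measured genes, where differences spread more widely and 9.5% were 1.5-fold higher, 11.1% were 1.5-fold lower and 3.05% were 2-fold higher. The median over the 9 was 0.48, against -0.06 over all measured genes. This median leaves out Ttk and comes from genes proposed with results of these arrays known, so it is a description.

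The only error that the data give is that between probes of the same gene. Among 317 genes with at least 2 measured probes, a single probe's log2 difference had an error of 0.31 (SD), with 0.37 in the dimmer and 0.23 in the brighter pairs. Variation between mice and errors common to a whole array are not in it. The dimmer pairs reach up to a mean intensity of 10.5, so the error near the floor may differ from 0.37. Aurkb and Nek2 differed by less than 0.37, Cdca8 (-0.41) and Bub1b (0.42) were barely past it, and the other measured members were further. This is no result about the members, since the share of all measured genes past 0.37 was not counted and such differences were not rare. Of all measured genes, 16.9% had a lower difference than Cdca8, while 87.0% had a lower one than Bub1b and the rest did not. In whole lung, more dividing cells and more of these transcripts per dividing cell cannot be told apart.

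**Figure D1:**
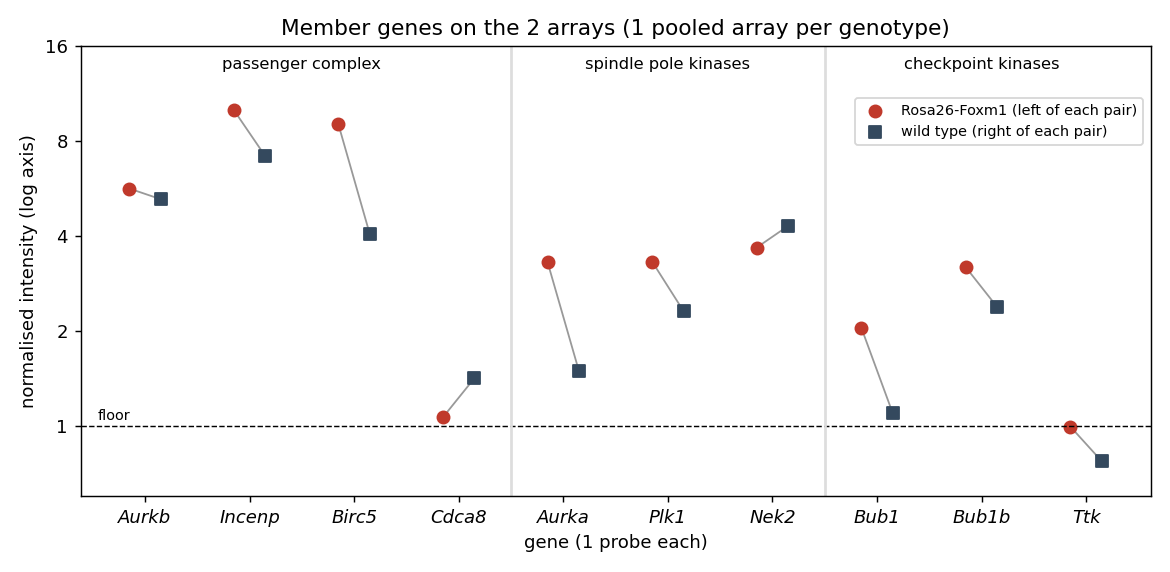
Normalised intensity (log axis) of each of the 10 genes on the Rosa26-Foxm1 array (red circles, left) and the wild type array (dark squares, right), with 1 probe per gene and the floor as a dashed line. Birc5, Aurka and Bub1 show the steepest lines, Nek2 and Cdca8 slope the other way, and both values of Ttk lie under the floor.

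Promoters of 8 of the 10 genes were in the RefSeq promoter table (build GRCm38.p6), all but Aurkb and Incenp, as windows of 300 bases from 250 before to 50 after the annotated start. Genes of mitosis are known to share the cell cycle genes homology region (CHR), an element through which MuvB complexes, carrying B-Myb and Foxm1 in dividing cells, reach the promoter, often beside CCAAT boxes. The windows are printed for the 4 highest members and for Cdca8, the lowest, so that their elements can be set side by side. They are in lower case, with capitals for each match on either strand to the first CHR form TTTGAA, the second form TTCGAA, the third form TTTAAA, the box CCAAT and the forkhead core TAAACA.
Birc5 promoter, chr11:117848987-117849286, plus strand: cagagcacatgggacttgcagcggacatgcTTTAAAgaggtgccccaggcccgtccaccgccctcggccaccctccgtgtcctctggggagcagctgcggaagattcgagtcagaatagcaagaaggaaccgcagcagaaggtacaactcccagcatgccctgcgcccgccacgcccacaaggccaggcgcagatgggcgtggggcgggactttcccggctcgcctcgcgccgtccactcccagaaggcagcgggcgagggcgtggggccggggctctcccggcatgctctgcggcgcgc
Aurka promoter, chr2:172370521-172370820, minus strand: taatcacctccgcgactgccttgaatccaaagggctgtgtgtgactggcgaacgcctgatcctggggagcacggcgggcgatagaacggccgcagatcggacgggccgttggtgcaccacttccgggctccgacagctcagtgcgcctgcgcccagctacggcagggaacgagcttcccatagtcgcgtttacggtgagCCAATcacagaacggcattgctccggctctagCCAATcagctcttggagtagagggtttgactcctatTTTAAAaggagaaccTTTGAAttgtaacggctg
Bub1 promoter, chr2:127831810-127832109, minus strand: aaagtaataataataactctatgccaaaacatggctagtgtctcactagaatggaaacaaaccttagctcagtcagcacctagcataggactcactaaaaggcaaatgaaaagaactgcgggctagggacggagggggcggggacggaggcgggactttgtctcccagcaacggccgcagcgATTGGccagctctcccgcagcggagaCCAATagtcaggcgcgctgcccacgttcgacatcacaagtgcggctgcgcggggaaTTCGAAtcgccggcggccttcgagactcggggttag
Plk1 promoter, chr7:122159185-122159484, plus strand: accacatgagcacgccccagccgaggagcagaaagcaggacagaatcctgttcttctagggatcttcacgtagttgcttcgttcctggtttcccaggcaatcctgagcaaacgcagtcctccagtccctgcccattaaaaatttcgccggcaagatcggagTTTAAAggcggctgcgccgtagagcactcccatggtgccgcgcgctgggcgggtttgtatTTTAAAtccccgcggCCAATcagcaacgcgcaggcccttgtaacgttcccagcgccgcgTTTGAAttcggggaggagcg
Cdca8 promoter, chr4:124936868-124937167, minus strand: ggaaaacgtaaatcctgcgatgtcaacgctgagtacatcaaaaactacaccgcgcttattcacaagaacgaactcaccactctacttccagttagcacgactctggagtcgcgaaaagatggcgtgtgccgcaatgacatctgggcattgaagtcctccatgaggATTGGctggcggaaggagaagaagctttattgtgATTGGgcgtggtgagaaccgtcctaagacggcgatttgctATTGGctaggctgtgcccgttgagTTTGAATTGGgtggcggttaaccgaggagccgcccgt

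A CHR form lay within the bases after the start in 6 of the 8 windows, against 3.58% of 32851 promoter windows, a stretch singled out after the matches were seen. These were Aurka with TTTGAA from base 33 and TTTAAA from base 18, Plk1 with TTTGAA from base 31, Bub1 with TTCGAA from base 15, Bub1b with TTTGAA from base 41, Cdca8 with TTTGAA from base 14 and Ttk with TTTGAA on the other strand from base 8. Anywhere in the window, TTTGAA was found in 5 of the 8 member promoters (17.9% of all), TTCGAA in 2 (1.56%), TTTAAA in 3 (13.2%) and CCAAT in 7 (37.4%). In Cdca8 the TTTGAA shares its last base with a CCAAT box on the other strand, so the capitals there run together. No member window held TAAACA, which 13.4% of all windows did. The matches did not fully sort the genes by their difference. Birc5, the highest, had only a distant TTTAAA at base -220 from the start and no CCAAT. Cdca8, the lowest but near the floor on both arrays, had a TTTGAA after the start and 4 CCAAT boxes. Nek2, the other measured member below 0, was the only one of the 8 without a CHR form, and had 2 CCAAT boxes. Aurka, Bub1, Plk1 and Bub1b, all above 0, had a CHR form after the start. Whether the matches go with the differences was not tested. A match or its absence in these letters says nothing of binding.

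**Figure D2:**
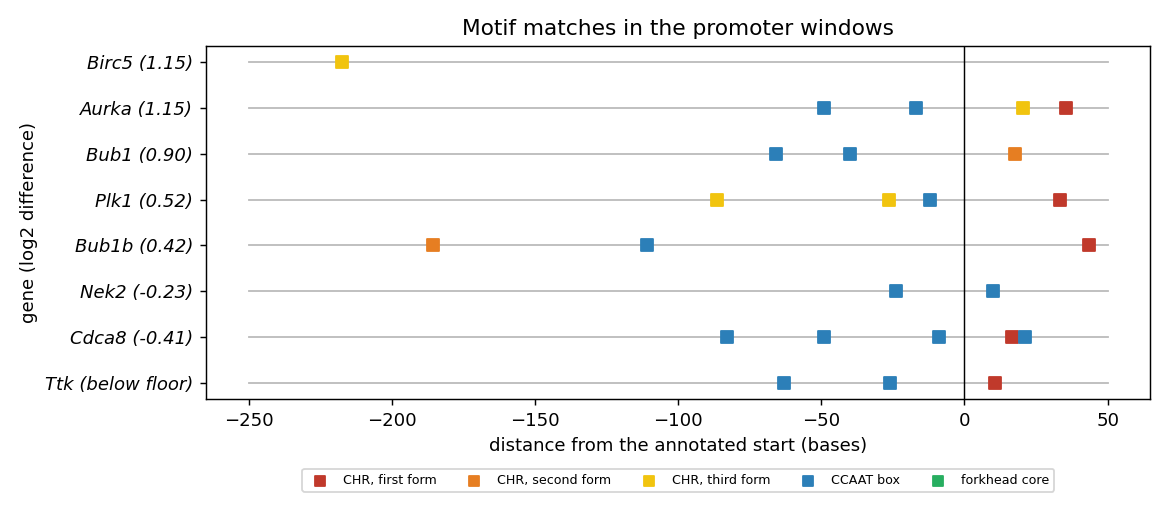
Positions of motif matches (coloured squares) along the promoter windows of the 8 genes with an entry, in bases from the annotated start, ordered by log2 difference (in brackets). CHR forms sit after the start in Aurka, Bub1, Plk1, Bub1b, Cdca8 and Ttk, and no forkhead core match is drawn because none was found. CHR forms occur both in genes above 0 and in Cdca8, below 0, while Nek2, also below 0, has none.

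Within the passenger complex the 4 subunits did not move together. Birc5 encodes survivin, a small protein that docks the complex on phosphorylated histone H3 at centromeres. Its normalised intensity was 9.03 in Rosa26-Foxm1 and 4.06 in wild type lung (deposited values 8.96 and 4.11), a log2 difference of 1.15. Of all measured genes, 98.7% had a lower difference. Incenp, the scaffold that binds Aurora B and activates it, had 10.02 in Rosa26-Foxm1 and 7.17 in wild type lung, 1.40-fold higher and short of the 1.5-fold size. Aurkb, the kinase, had 5.66 in Rosa26-Foxm1 and 5.23 in wild type lung, 1.08-fold apart and within the probe error. Cdca8 encodes borealin, which joins survivin and Incenp in the centromere-binding part. It had 1.07 in Rosa26-Foxm1 and 1.42 in wild type lung, both just over the floor, a log2 difference of -0.41. Whether these unequal differences exceed the variation between mice was not tested.

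Survivin is also a member of the inhibitor of apoptosis family. Of 9 other genes of that family listed, 7 had a probe and 4 were measured, with a median of -0.00. None of the 4 was past 1.5-fold, against 7.08% of all measured genes higher and 8.45% lower, so none among 4 is no contrast with Birc5. Naip2, Birc2 and Birc3 were also among the brighter measured genes, unlike Birc5. They ran from -0.14 for Birc2, a ubiquitin ligase of TNF receptor signalling, to 0.22 for Birc3, its close relative (31.0 in Rosa26-Foxm1 and 26.7 in wild type lung).

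Among the spindle pole kinases Aurka stood apart. Aurora A matures centrosomes and, through its activator Tpx2, builds the bipolar spindle. Aurka had 3.31 in Rosa26-Foxm1 and 1.49 in wild type lung (deposited 3.26 and 1.52), a log2 difference of 1.15, higher than in 98.7% of measured genes. Plk1, the polo kinase that Aurora A activates and that acts from mitotic entry to cytokinesis, had 3.32 in Rosa26-Foxm1 and 2.31 in wild type lung, 1.43-fold higher. Nek2, which dissolves the linker between the centrosomes before mitosis, had 3.68 in Rosa26-Foxm1 and 4.31 in wild type lung, 1.17-fold lower and within the probe error. The wild type value of Aurka is close to the floor, so its fold rests on a weak signal.

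Of the checkpoint kinases, Bub1, which phosphorylates histone H2A at centromeres and so helps recruit the passenger complex, had 2.05 in Rosa26-Foxm1 and 1.10 in wild type lung (deposited 2.01 and 1.10). Its log2 difference of 0.90 was higher than that of 97.5% of measured genes, with a wild type value barely above the floor. Bub1b encodes BubR1, a part of the complex that inhibits the anaphase-promoting complex, and had 3.18 in Rosa26-Foxm1 and 2.38 in wild type lung, 1.34-fold higher. Ttk encodes Mps1, the kinase that starts checkpoint signalling at kinetochores. Its deposited values were 0.995 in Rosa26-Foxm1 and 0.761 in wild type lung, both under the floor, so no fold is given.

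**Figure D3:**
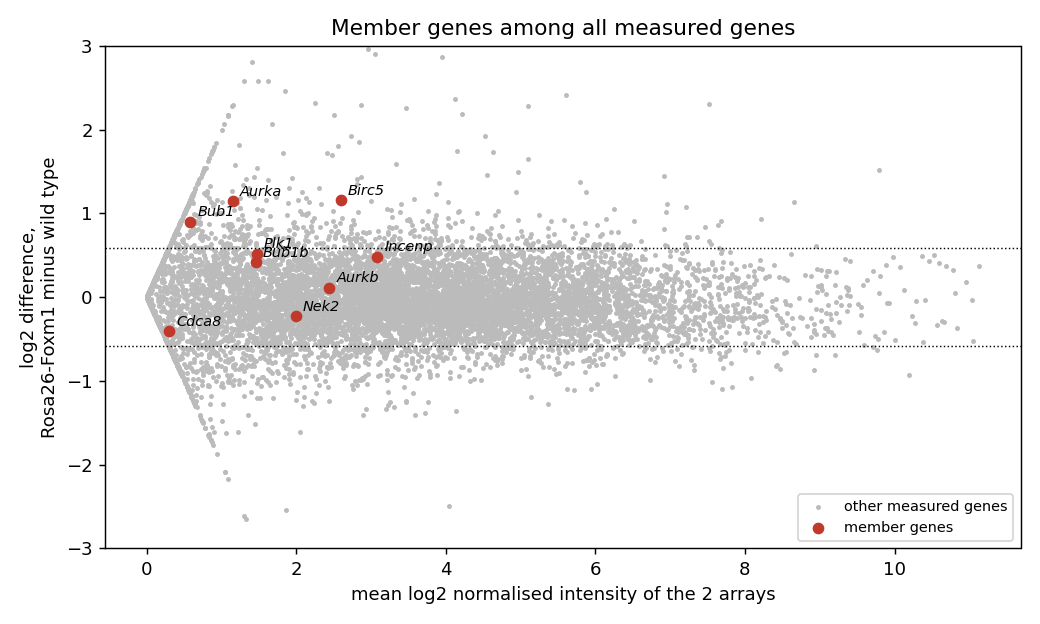
Log2 difference (Rosa26-Foxm1 minus wild type) against mean log2 normalised intensity for all measured genes (grey) and the 9 measured members (red), with dotted lines at 1.5-fold. Birc5 and Aurka lie above most genes of like intensity, Bub1 lies near the edge set by the floor, and 11 genes fall outside the plotted range of -3 to 3.

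Changing the scaling moved the members little, though median scaling nearly repeats the deposited values. With median scaling, the deposited values or loess, Birc5 stayed between 1.13 and 1.19, Aurka between 1.11 and 1.18 and Bub1 between 0.87 and 0.91, and no measured member changed sign. With the floor raised to the 75th percentile only Incenp and Birc5 were measured, Birc5 was at 0.27 because its wild type value was set to the floor, and no member was past 1.5-fold. Without a floor Ttk was at 0.36.

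**Figure D4:**
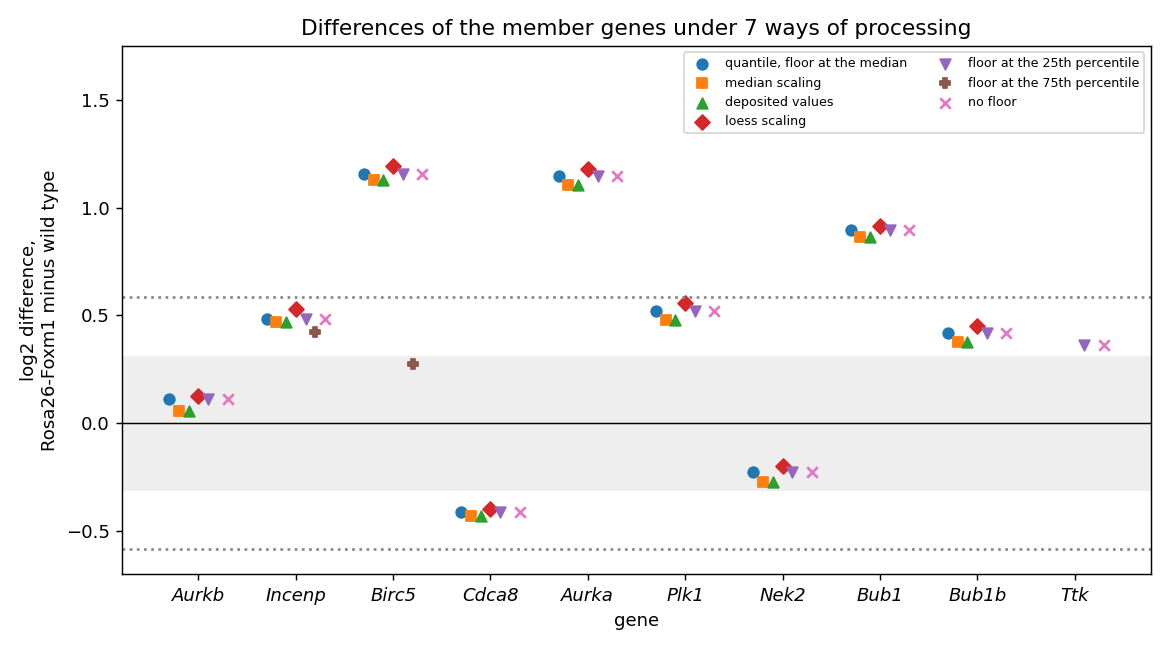
Log2 difference (Rosa26-Foxm1 minus wild type) of each gene under 7 ways of processing (symbols), with the probe error of 0.31 over all pairs in grey and 1.5-fold as dotted lines. All 9 measured members are dimmer genes, and the error of 0.37 in dimmer pairs is wider than this band. Ttk, at 0.36, lies outside the band but within 0.37. Symbols of a gene lie close together except for Birc5 under the highest floor, and Ttk appears only under the lowest floor and none. For the other genes the lowest floor and none could only repeat the values with the floor at the median.

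Foxm1 itself, through 1 probe, had 1.23 in Rosa26-Foxm1 and 1.13 in wild type lung, a log2 difference of 0.11, near the floor on both arrays. The sources used here do not say whether that probe matches the transgene, so it is no check of the genotype labels. Of the 7 genes listed as Foxm1 and its MuvB partners, 4 were measured. None of the 4 was past 1.5-fold, against 7.08% of all measured genes higher and 8.45% lower. They ran from -0.31 for Lin52, a MuvB subunit, to Foxm1 as the highest, and Mybl2, which encodes B-Myb, was below the floor on both arrays (deposited 0.411 in Rosa26-Foxm1 and 0.384 in wild type lung).

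Among 11 measured genes listed as activators and substrates of Aurora A and Plk1 the median was 0.11. The list also holds Plk2 and Plk3, which are relatives of Plk1. Of these, 3 were below 0, but none was at least 1.5-fold lower, against 8.45% of all measured genes. At least 1.5-fold higher were 3, all of them dimmer genes, against 7.08% of all measured genes and 9.5% of the dimmer ones. The higher ones were the mitotic cyclin Ccnb2 (2.64 in Rosa26-Foxm1 and 1.59 in wild type lung, log2 difference 0.73), the stress-induced polo kinase Plk3 (3.43 in Rosa26-Foxm1 and 2.23 in wild type lung, 0.62) and Pkmyt1, an inhibitory kinase of Cdk1 for which 1.58-fold is a lower bound, since the wild type value lay under the floor. Cdc25a, a phosphatase that activates cyclin-dependent kinases, was the lowest, 1.49-fold lower at 4.60 in Rosa26-Foxm1 and 6.85 in wild type lung. Tpx2 was at 0.25, with 10.4 in Rosa26-Foxm1 and 8.73 in wild type lung. Cdk1, the kinase that starts mitosis, and Plk4, the centriole duplication kinase, lay under the floor in both genotypes.

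Of 11 measured partners and substrates of the passenger complex, none was past 1.5-fold, against 7.08% of all measured genes higher and 8.45% lower. Above 0 were 6, against 43.9% of all measured genes, and 5 were below, with a median of 0.09. With shares this small, none among 11 genes says little. Kif4, a chromosome-associated kinesin, was the highest at 0.44 (1.36 in Rosa26-Foxm1 and 0.682 in wild type lung, the second under the floor, so that 0.44 is a lower bound). Kat5, an acetyltransferase, was the lowest at -0.40. Haspin, the kinase whose histone H3 mark survivin binds, and Aurkc, the germ cell relative of Aurora B, were below the floor on both arrays.

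Among 7 measured spindle checkpoint partners none was past 1.5-fold either, against 7.08% of all measured genes higher and 8.45% lower. The median of these partners was 0.07. Mad2l1, which encodes the checkpoint effector Mad2, was the highest at 0.45 by its brighter probe (4.60 in Rosa26-Foxm1 and 3.37 in wild type lung), while its other probe, near the floor, was at -0.10. Mis12, a kinetochore protein, was the lowest at -0.22, and Bub3, the binding partner of Bub1 and BubR1, was at -0.05 (36.7 in Rosa26-Foxm1 and 37.9 in wild type lung). Of 7 measured relatives and substrates of Nek2, 1 was at least 1.5-fold higher, against 7.08% of all measured genes. This was Nek6, a kinase of mitotic spindle formation, with 19.0 in Rosa26-Foxm1 and 11.1 in wild type lung (0.78). Nek9, which activates Nek6, was the lowest at -0.54, with 34.7 in Rosa26-Foxm1 and 50.3 in wild type lung. The median of these 7 was 0.07, and -0.22 with no floor.

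The phosphatases that oppose these kinases gave 16 measured genes, none past 1.5-fold, with 11 below 0 and a median of -0.18. Over all measured genes only 43.9% were above 0 and the median was -0.06. Most of the 16 were among the brighter measured genes, where differences spread less widely. Ppp1cb, a catalytic subunit of protein phosphatase 1, was the lowest at -0.48 (161 in Rosa26-Foxm1 and 225 in wild type lung), and Ppp2ca, a catalytic subunit of protein phosphatase 2A, was the highest at 0.29. General proliferation markers had a median of -0.05 over 8 measured genes, none past 1.5-fold, beside the same shares of all measured genes. They ran from -0.29 for the replication helicase subunit Mcm4 to 0.35 for the ribonucleotide reductase subunit Rrm2 (5.41 in Rosa26-Foxm1 and 4.24 in wild type lung). The difference between these lists and the members was not tested.

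**Figure D5:**
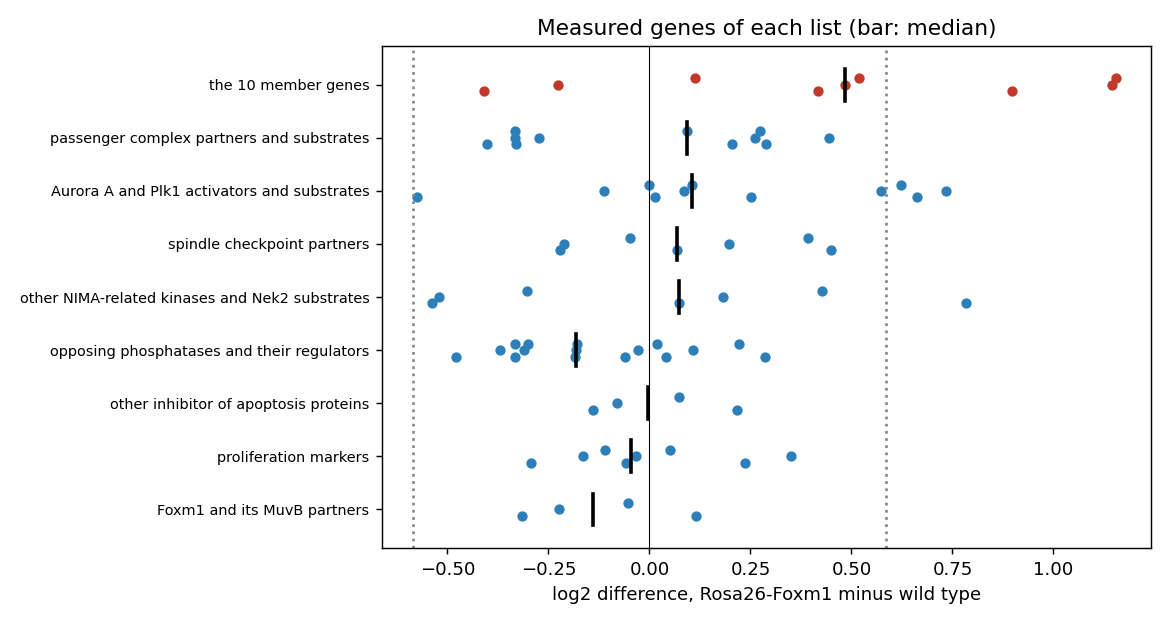
Log2 difference (Rosa26-Foxm1 minus wild type) of every measured gene of the member group (red) and of 8 lists of partner genes (blue), with the median as a bar and 1.5-fold as dotted lines. The median of the 9 measured members is 0.48, and those of the other lists lie between -0.18 and 0.11. The members are all dimmer genes and were proposed with results of these arrays known. Each other list also holds brighter genes, so the medians are not like for like.

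The arrays also differed in markers of cell types, whose part in the member values was not tested. The counts past 1.5-fold below stand beside 7.08% of all measured genes higher and 8.45% lower. All 8 lung epithelial markers were measured, with a median of -0.05 and a summed normalised intensity of 6823 in Rosa26-Foxm1 and 7645 in wild type lung. They ran from -0.53 for the club cell protein gene Scgb1a1 to 0.94 for the surfactant protein gene Sftpd. Of 6 endothelial markers, 5 were at least 1.5-fold lower (sums 1143 and 1885 in Rosa26-Foxm1 and wild type lung), from Pecam1 at -1.08 to Cldn5 at -0.58. Of 5 plasma cell markers, 3 passed 1.5-fold upward and 1 downward, from -0.60 for Sdc1 to 3.06 for Jchain. Their sums were 619 in Rosa26-Foxm1 and 273 in wild type lung, of which Jchain alone gave 413 and 49.3. Macrophage markers were measured for 4 of 7 genes, with 2 at least 1.5-fold lower, from Siglecf at -1.26 to Mrc1 at 0.06. Their sums were 49.3 in Rosa26-Foxm1 and 59.9 in wild type lung, of which Mrc1 alone gave 37.0 and 35.5. T and B cell markers gave 5 measured genes of 8, with 1 past 1.5-fold in each direction (sums 59.1 and 73.7 in Rosa26-Foxm1 and wild type lung), from Ms4a1 at -0.96 to Cd3g at 0.76. Both erythroid markers with a probe of their own were below 0 (sums 1659 and 2181 in Rosa26-Foxm1 and wild type lung), Alas2 at -0.94 and Hba-a1 at -0.37. Of 5 thymocyte markers, the 4 defining genes Rag1, Rag2, Dntt and Ptcra were below the floor on both arrays, and Cd1d1 was at -0.18 (list sums 18.5 and 20.5 in Rosa26-Foxm1 and wild type lung).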

How the data were processed

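The authors deposited linear intensities, 1 for each probe on each array. Both columns have a median of 1.00 and so had been scaled to about the array's own median. Their image software and background correction, and any other normalisation, are not given in the sources. Per the labels' protocols, digoxigenin-labelled cRNA was made from DNase-treated total RNA. Deposited intensities ran from 0.0510 to 2268 on the Rosa26-Foxm1 array and from 0.0294 to 2820 on the wild type array.

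Of 33012 probes, 14411 carried 1 gene in the platform annotation, 247 several and 18354 none in the table used here. Symbols were updated through the gene ID to RefSeq (GRCm38.p6), where 13832 of 13840 genes matched. Values were quantile normalised, floored at the 50th percentile and taken to log2, and the probe with the highest mean stood for its gene. Each difference is the Rosa26-Foxm1 value minus the wild type value, and is a lower bound where either value is under the floor. No test could be run with 1 array per group, and precision is limited by the number of arrays. The calculation was tested on simulated data (Python 3.11.15, numpy 2.4.6, pandas 2.3.3). Folds were set there only in genes above an intensity that Aurka, Plk1, Nek2, Bub1, Bub1b and Cdca8 did not reach. It therefore says nothing of folds near the floor.

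The members, lists and sizes were chosen with earlier results of these data known. Named genes are all members, Foxm1, and of each pathway list those past 1.5-fold with the highest and lowest. Of marker lists the highest and lowest are named. Genes outside that rule (Tpx2, Cdk1, Plk4, Haspin, Aurkc, Bub3, Mybl2 and the thymocyte genes below the floor) were named for their direct link to a member or list after their values were seen. The alternatives tried were scaling by median, by loess (span 0.3) or not at all, a floor at the 25th percentile, at the 75th or none, and the median of a gene's probes.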

Additional observations from a re-analysis of the deposited data

How the results depend on the processing

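No paired analysis was possible because each genotype has 1 array. The 9 measured members kept their sign under every alternative that measured them, and none was at least 1.5-fold lower under any. Much of this was fixed in advance. Each had 1 probe and lay above the floor on both arrays, so a lower floor, no floor and the median of probes returned the same values. A higher floor shared by both arrays cannot turn a sign, and median scaling nearly repeats the deposited values. The median over the members that each setting measured ran from 0.35 to 0.53. These are not always the same 9 genes, since the floor at the 25th percentile and no floor add Ttk. With the floor at the 75th percentile, where only 2 members were measured, 0 members were at least 1.5-fold higher, against 3 by the settings of the report. That floor also turned the median of the passenger complex partners to -0.33. The median of the relatives and substrates of Nek2, 0.07 in the report, was -0.26 with that floor and -0.22 both with the floor at the 25th percentile and with no floor, so its sign depends on the floor. Other lists with medians near 0 changed sign by small amounts: the inhibitor of apoptosis proteins ran from -0.08 to 0.07, the checkpoint partners from -0.13 to 0.12 and the proliferation markers from -0.05 to 0.01. Over all genes, 674 were at least 1.5-fold higher and 804 lower, against 1360 and 1546 with the floor at the 25th percentile, 237 and 288 at the 75th, and 1825 and 1996 with no floor. All 9 measured members were among the dimmer genes, where the larger probe error of 0.37 limits what a single probe can show.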
